A study of Mus musculus with 6 samples.

Results

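The Wnt ligands and Wnt target genes described here are 10 genes of the mouse tibia: the ligand genes *Wnt4*, *Wnt5a*, *Wnt5b*, *Wnt10b* and *Wnt11*, the receptor genes *Ror2* and *Lrp4*, and the target genes *Axin2*, *Lef1* and *Tcf7*. They were found by matching the Ensembl identifiers of the expression table to gene symbols of the GRCm38 annotation. All 10 were among the 47729 genes of the table, and all 10 were among the 19308 genes with enough reads to be tested. RNA sequencing was used to compare 3 Control mice with 3 mice of Longshanks line 1 (LS1). LS1 is a line selectively bred for a long tibia relative to body mass, and the Control line was bred at random from the same CD-1 stock (the labels give its strain as ICR). All mice were 14 days old and came from different families of generation 13. Each library holds polyadenylated RNA from both proximal tibial epiphyses of 1 mouse, so that growth plate, metaphysis, joint cartilage, secondary ossification center and marrow were read together. With 1 selected line, an effect of selection and chance differences between the lines cannot be told apart.

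Wnt proteins are secreted, lipid-modified ligands. In the canonical branch they bind Frizzled receptors and the coreceptors LRP5 and LRP6, which stabilises β-catenin, and β-catenin then acts with TCF/LEF factors on target genes such as *Axin2*. In the non-canonical branch, for which WNT5A and its receptor ROR2 are best known, β-catenin is not needed and cell polarity and movement are affected. In the growth plate, WNT5A and WNT5B are known to act on the passage of chondrocytes from proliferation to hypertrophy, and canonical Wnt signaling is known to favour hypertrophy and bone formation.

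None of the 10 genes passed limma's test with the p-value adjusted over all 19308 genes, whereas 14 genes of the table did (0.0725%). An unadjusted limma p under 0.05 was reached by 2 of the 10 with higher values in LS1 and by 1 with lower values, against 7.08% and 5.86% of all genes. On the recovered reads, edgeR called 0 of the 10 (0.0363% of all genes) and DESeq2 called 1 (2.36% of all genes). Overlap between the lines was then counted gene by gene. In *Wnt5a* and *Ror2*, all LS1 mice were above all Control mice, by 1.54-fold and 1.44-fold. In *Lef1* all LS1 mice were below all Control mice, by 1.29-fold. The other 7 genes overlapped between the lines. Among all genes tested, 10.3% had every LS1 mouse above every Control mouse and 8.94% had every LS1 mouse below. The 2 and 1 of 10 genes lie near these shares and are not read as a result about the 10. When LS1 replicate 1 was left out, 6 of the 10 lay above and 1 below, against 16.1% and 14.1% of all genes in the same comparison of 3 mice with 2. With any other mouse left out, 2 or 3 of the 10 lay above and 1 below, against 14.1% to 17.9% and 12.4% to 16.6% of all genes.

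Promoter sequence was available from RefSeq (build GRCm38.p6) for 8 of the 10 genes, in windows of 300 bases that run from 250 bases before to 50 bases after a transcription start. There was none for *Wnt5a* and *Lrp4*. The letters CTTTGAT and CTTTGAA, the core that TCF/LEF factors are known to bind, were searched on both strands. Either was present in 8.65% of all 32851 windows (CTTTGAT in 3.73%, CTTTGAA in 5.14%). Of the 15 windows of the 8 genes, 2 held a match, one at the annotated start of *Wnt11* and one at another start of *Wnt5b*. The windows nearest to the annotated start had 66.3% to 84.3% G and C and 18 to 51 CpG. The other windows of these genes had 43.7% to 67.3% and 4 to 23 CpG. The medians over all windows, other starts included, were 52.7% and 7. The 250 bases upstream of the RefSeq start are shown for *Ror2*, *Lef1* and *Wnt11*. *Ror2* and *Lef1* are the genes with a window whose mice did not overlap between the lines, and *Wnt11* holds a match. This RefSeq start is the annotated start in *Ror2* and *Wnt11* and lies 148 bases before it in *Lef1*. The stretches shown lie at chr13:53286125-53286374 on the minus strand (*Ror2*), chr3:131110073-131110322 on the plus strand (*Lef1*) and chr7:98834862-98835111 on the plus strand (*Wnt11*). Each is written 5′ to 3′ along the gene, and capitals mark a match, which in *Wnt11* is CTTTGAT read on the opposite strand.
Ror2: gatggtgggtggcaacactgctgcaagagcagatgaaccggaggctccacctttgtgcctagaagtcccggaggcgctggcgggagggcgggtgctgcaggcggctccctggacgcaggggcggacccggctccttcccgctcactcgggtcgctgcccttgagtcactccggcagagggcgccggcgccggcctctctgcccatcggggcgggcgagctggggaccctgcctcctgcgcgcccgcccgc
Lef1: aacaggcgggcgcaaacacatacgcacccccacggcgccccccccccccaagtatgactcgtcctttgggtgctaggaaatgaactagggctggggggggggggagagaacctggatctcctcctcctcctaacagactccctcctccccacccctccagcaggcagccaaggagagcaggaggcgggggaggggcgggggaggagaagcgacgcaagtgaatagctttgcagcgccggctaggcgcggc
Wnt11: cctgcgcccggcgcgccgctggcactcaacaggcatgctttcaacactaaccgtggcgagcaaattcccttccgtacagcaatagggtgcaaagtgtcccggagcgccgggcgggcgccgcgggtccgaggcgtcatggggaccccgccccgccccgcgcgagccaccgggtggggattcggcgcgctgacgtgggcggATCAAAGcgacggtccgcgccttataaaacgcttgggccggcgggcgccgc
A match is a description of the letters in these windows, and no binding was measured.

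The libraries held 68803249 to 76581954 reads in Control and 82227711 to 88745366 in LS1, so every LS1 library was deeper, and values are given as normalized counts (reads divided by 1 size factor per library). The first principal component, 35.1% of the variance, separated LS1 replicates 1 and 2 (43.7 and 50.1) from the Control mice (-41.5 to -22.1), while LS1 replicate 3 lay between them at -4.29. Markers of chondrocytes, osteoblasts, marrow stroma, blood cells, endothelium and muscle, in 13 lists, all had reads in this tissue. In bulk RNA such as this, fewer cells of a type and less RNA per cell cannot be told apart.

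Among the ligands, *Wnt5a* stood out. Its gene (ENSMUSG00000021994) lies at chr14:28504750-28527448 on the plus strand. *Wnt5a* had 1033.2, 1013 and 1029 normalized counts in the Control mice and 1759.8, 1291 and 1733 in the LS1 mice. The Control mice were nearly equal, every LS1 mouse lay above them, and LS1 replicate 2 was the lowest of its line. The mean was 1025 ± 10.4 (SD, n = 3) for the Control line and 1595 ± 263 (SD, n = 3) for LS1. The log2 fold change was 0.62 (standard error 0.17, 95% interval 0.25 to 1.00), with an unadjusted p = 0.0038 and an adjusted p = 0.228 from limma. The call depended on the tool: on the recovered reads the adjusted p was 0.221 from edgeR and 0.0301 from DESeq2. *Wnt5a* was the only one of the 10 genes that DESeq2 called. The study had itself selected *Wnt5a* on these libraries, so its direction is not independent evidence. In the study's qPCR of dissected growth plates from other mice, *Wnt5a* was on average slightly below Control in both Longshanks lines. The study did not list it as differentially expressed there. That tissue left out the metaphysis and the joint surface, which are part of these libraries.

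*Wnt5b*, the close paralog of *Wnt5a*, was the most abundant Wnt ligand. Its gene (ENSMUSG00000030170) lies at chr6:119432531-119544347 on the minus strand. The Control mice had 3572, 3274 and 3571 normalized counts and the LS1 mice 3343, 3936 and 4170.3. LS1 replicates 2 and 3 lay above all Control mice and replicate 1 lay among them. The log2 fold change was 0.13 (standard error 0.14, 95% interval -0.17 to 0.43, adjusted p = 0.715 from limma).

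*Wnt4*, which is expressed in prehypertrophic cartilage and the joint region, lies at chr4:137277489-137299726 on the plus strand (ENSMUSG00000036856). It had 1435, 2023 and 2811 normalized counts in Control and 2035, 1765 and 2586 in LS1. The Control mice alone spanned the whole range of the LS1 mice. Its log2 fold change was 0.06 with a standard error of 0.24 (95% interval -0.46 to 0.58, adjusted p = 0.937 from limma).

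*Wnt10b*, a canonical ligand known to promote bone formation, lies at chr15:98770712-98778150 on the minus strand (ENSMUSG00000022996). The Control mice had 411, 390.2 and 295 normalized counts and the LS1 mice 314, 437 and 458, which overlap. Its log2 fold change was 0.14 (95% interval -0.38 to 0.65, adjusted p = 0.842 from limma). *Wnt11*, a mostly non-canonical ligand, lies at chr7:98835112-98855195 on the plus strand (ENSMUSG00000015957) and was the lowest of the 10 genes, with 131 reads in its shallowest library. Its normalized counts were 220.0, 145 and 312 in Control and 172, 231 and 268 in LS1. All LS1 mice lay within the range of the Control mice. The log2 fold change of *Wnt11* was 0.03 (95% interval -0.65 to 0.71, adjusted p = 0.977 from limma), and its sign turned under DESeq2 and edgeR.

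**Figure D1:**
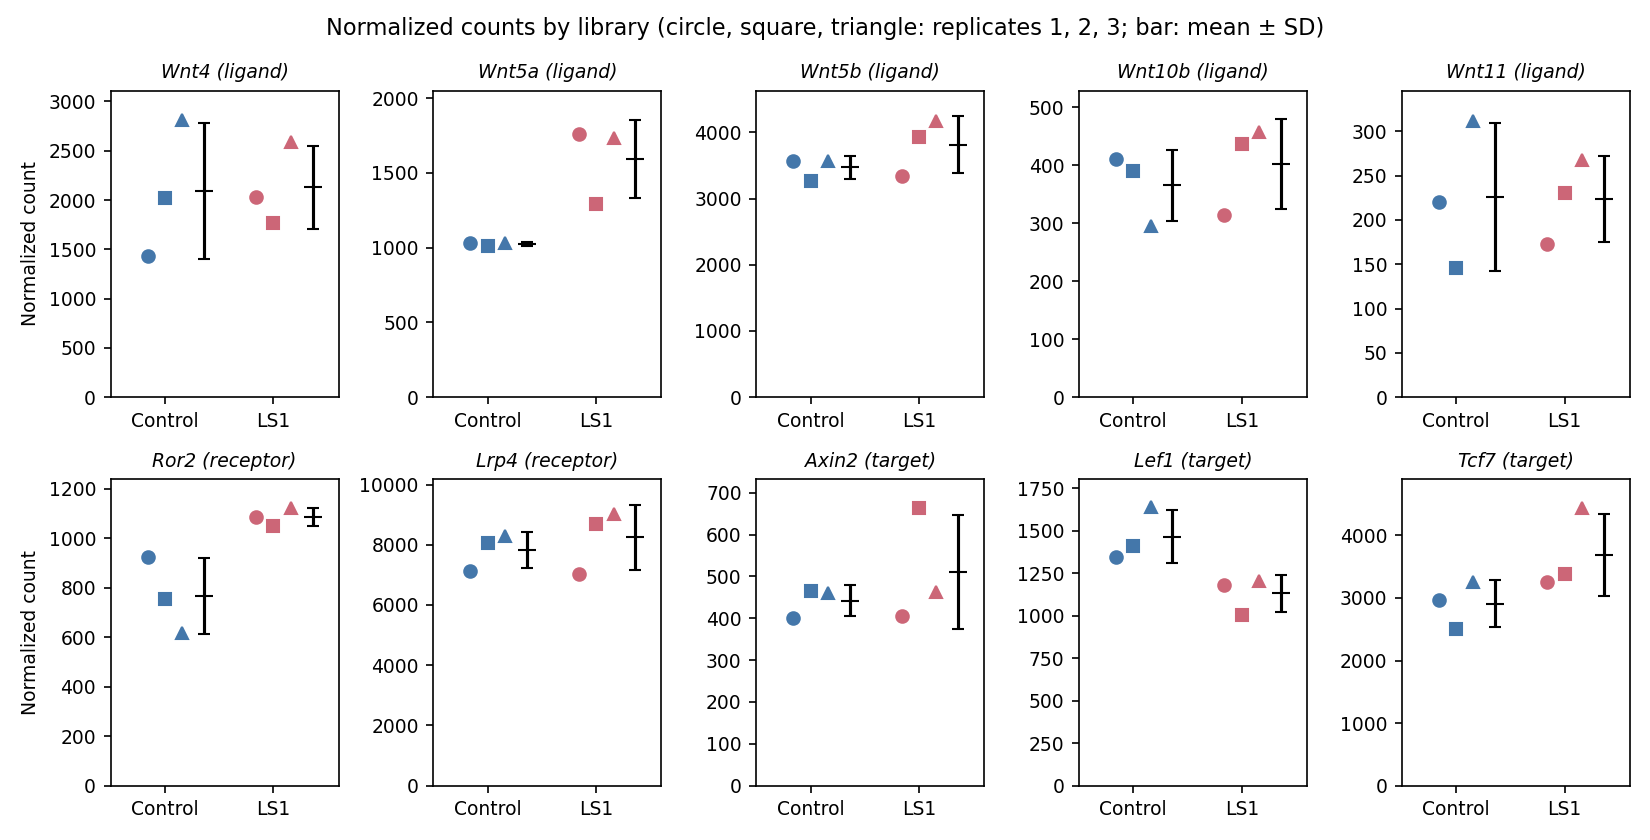
Normalized counts (vertical axes, each from 0) of the 10 genes in the 3 Control and 3 LS1 mice. Each point is 1 mouse (circle, square and triangle for replicates 1, 2 and 3) and each bar the mean ± SD. The LS1 points of *Wnt5a* (1291 to 1759.8) and *Ror2* (1049 to 1122) lie above all Control points, those of *Lef1* (1008 to 1206) lie below them, and the other genes overlap.

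The counts by mouse are plotted for each gene on its own axis, so that the spread within a line can be set against the distance between the lines. Levels were then compared between genes as normalized counts per kb of merged exon. In Control the order by mean level per kb was *Wnt5b* (1308), *Tcf7* (1109), *Lrp4* (745), *Wnt4* (498), *Ror2* (180.4), *Lef1* (167), *Wnt5a* (131), *Wnt10b* (107), *Axin2* (80.2) and *Wnt11* (54.6). The ranges of *Wnt5b* and *Tcf7*, of *Ror2* and *Lef1*, and of *Axin2* and *Wnt11* overlapped, and the other neighbors in this order did not. In LS1 the order was the same except that *Wnt5a* (204 per kb) stood above *Lef1* (129 per kb). Here *Wnt5b* (1438) and *Tcf7* (1406), *Lef1* and *Wnt10b* (119), and *Wnt10b* and *Axin2* (92.8) overlapped.

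Of the 19 Wnt ligand genes of the mouse, 9 had too few reads to be tested (*Wnt2*, *Wnt3*, *Wnt3a*, *Wnt6*, *Wnt7a*, *Wnt8a*, *Wnt8b*, *Wnt9b* and *Wnt10a*), with no value above 29.9 normalized counts. The 5 ligands described here made up 89.7% to 93.1% of the summed Wnt level per kb in each mouse. *Wnt5b* alone took 56.5% ± 4.58 in Control and 57.6% ± 2.91 in LS1 (mean ± SD, n = 3 mice a line). *Wnt4* took 21.1% ± 5.25 and 20.3% ± 2.58. The share of *Wnt5a* was 5.66% ± 0.485 in Control and 8.21% ± 1.61 in LS1. These shares are given as a description, with no test.

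**Figure D2:**
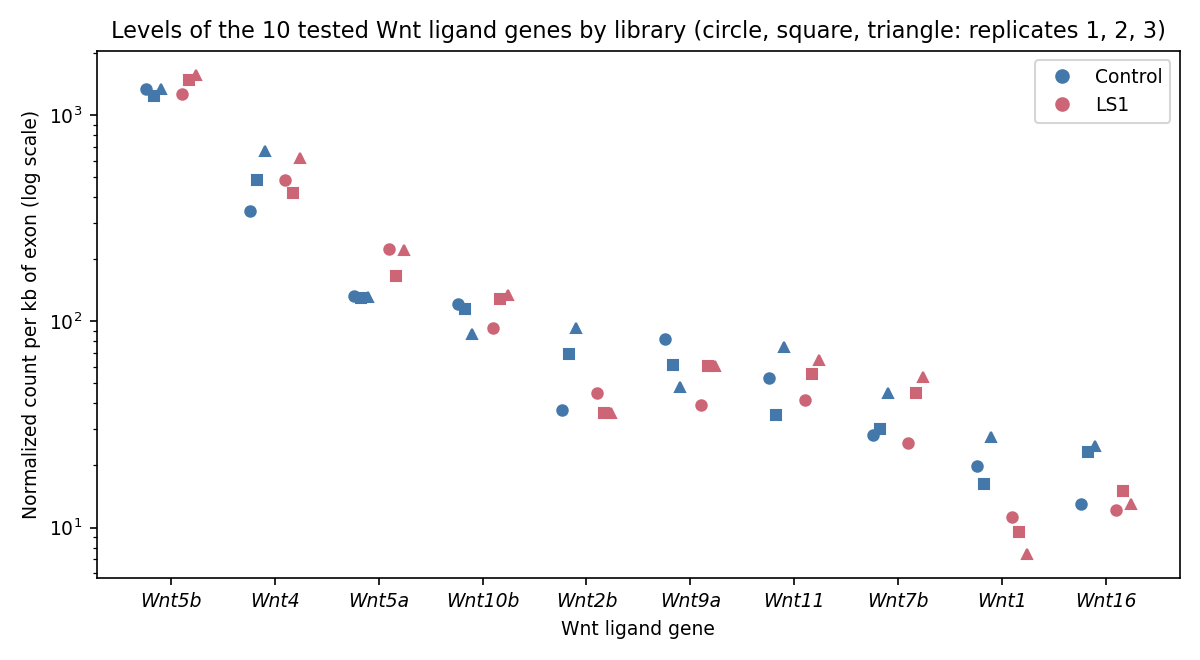
Normalized counts per kb of exon (vertical axis, log scale) of the 10 tested Wnt ligand genes, in order of mean share of the summed Wnt level in Control. Each point is 1 mouse, blue for Control and red for LS1. *Wnt5b* and *Wnt4* lead in both lines, and the LS1 points lie above the Control points in *Wnt5a* and below them in *Wnt1*.

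The plot of Wnt levels by gene shows how far *Wnt5b* exceeds the remaining ligands. *Wnt1*, which is not among the 10 genes, had 17.7 to 26.7 normalized counts in LS1 and 38.8 to 65.3 in Control, close to the minimum for testing. The 3 genes whose log2 values ran most closely with those of *Wnt5a* over the 6 libraries, out of 19307 searched, were *Tmem14a* (Pearson's r 0.992), *Chsy1* (0.987) and *Wls* (0.987). The 6 points fall into 2 lines, and 98 genes had a coefficient above 0.95, so this is a ranking and no test. With the mean of each line removed, the coefficients ran from 0.925 to 0.955. The 3 genes were picked for their coefficients over the same 6 libraries, so high values here partly follow from that choice. *Wls* encodes the carrier that takes Wnt proteins to the cell surface, and *Chsy1* a chondroitin synthase.

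Of the receptor genes, *Ror2*, which encodes a receptor tyrosine kinase that binds WNT5A, lies at chr13:53109312-53286124 on the minus strand (ENSMUSG00000021464). It had 924, 756 and 616 normalized counts in the Control mice and 1085, 1049 and 1122 in the LS1 mice. The LS1 mice were close to one another and all lay above the highest Control mouse, and the spread was in the Control line. The means were 765 ± 154 (SD, n = 3) and 1085 ± 36.7 (SD, n = 3), a log2 fold change of 0.52 (standard error 0.19, 95% interval 0.11 to 0.94). The unadjusted p was 0.0182 and the adjusted p 0.299 from limma, with an adjusted p of 0.172 from DESeq2.

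*Lrp4* encodes a receptor of the LDL receptor family that binds sclerostin and DKK1 and dampens canonical signaling in bone. Its gene lies at chr2:91457511-91513779 on the plus strand (ENSMUSG00000027253). It had 7137, 8051 and 8292 normalized counts in Control and 7026, 8690.3 and 9021 in LS1. LS1 replicate 1 was the lowest of the 6 mice and LS1 replicate 3 the highest. The log2 fold change was 0.07 (standard error 0.14, 95% interval -0.24 to 0.38, adjusted p = 0.868 from limma).

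Of the target genes, *Axin2*, which encodes a scaffold of the β-catenin destruction complex and is a widely used readout of canonical signaling, lies at chr11:108920349-108950783 on the plus strand (ENSMUSG00000000142). The Control mice had 399.6, 465 and 461 normalized counts and the LS1 mice 406, 664 and 463. Only LS1 replicate 2 lay outside the range of the Control mice. The log2 fold change was 0.18 (standard error 0.23, 95% interval -0.32 to 0.68, adjusted p = 0.771 from limma), and without LS1 replicate 2 it was -0.0247.

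*Lef1* and *Tcf7* encode transcription factors of the TCF/LEF family that act with β-catenin, and both are themselves target genes of the pathway. *Lef1* lies at chr3:131110471-131224356 on the plus strand (ENSMUSG00000027985). It had 1344, 1412 and 1640.3 normalized counts in Control and 1183, 1008 and 1206 in LS1, with every LS1 mouse below every Control mouse. The means were 1466 ± 155 (SD, n = 3) and 1132 ± 108 (SD, n = 3). Its log2 fold change was -0.37 (standard error 0.16, 95% interval -0.73 to -0.01, unadjusted p = 0.0438, adjusted p = 0.370 from limma).

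*Tcf7* (ENSMUSG00000000782) lies at chr11:52252371-52283014 on the minus strand. Its values were 2969, 2504 and 3256 normalized counts in Control and 3251, 3377 and 4441 in LS1. The lines overlapped by a narrow margin, since the lowest LS1 mouse (3251) lay just under the highest Control mouse (3256). The means were 2910.0 ± 379 (SD, n = 3) and 3689.7 ± 654 (SD, n = 3). The log2 fold change was 0.34 (standard error 0.16, 95% interval -0.02 to 0.70, unadjusted p = 0.0642, adjusted p = 0.417 from limma), and 0.20 without LS1 replicate 3.

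**Figure D3:**
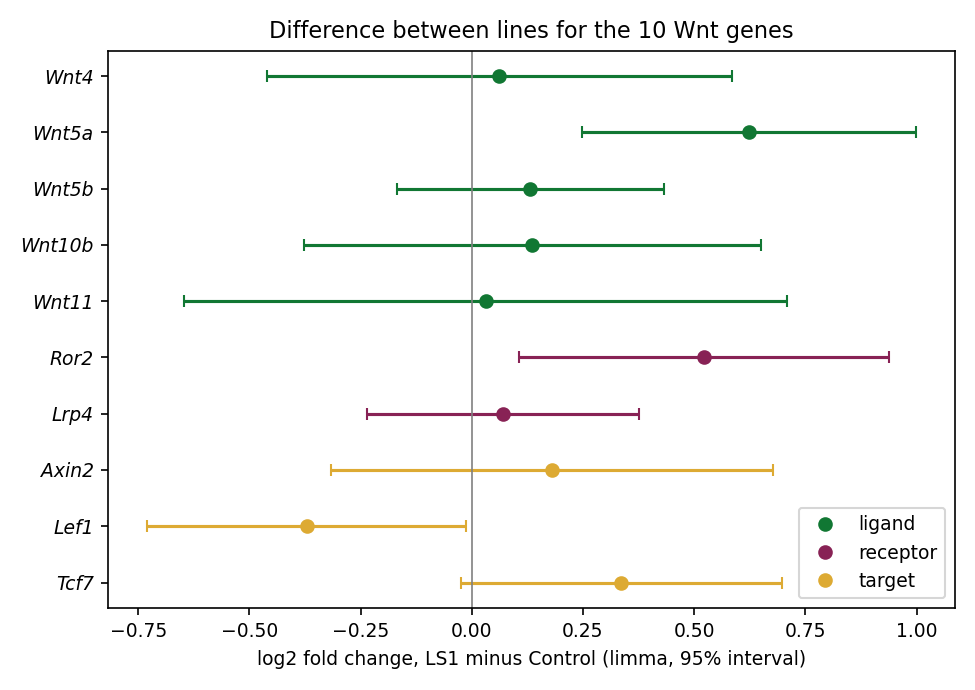
Log2 fold change (LS1 minus Control, horizontal axis) of the 10 genes from limma, with 95% intervals that are not adjusted for the number of genes. Colors mark ligands, receptors and targets. The intervals of *Wnt5a* (0.25 to 1.00) and *Ror2* (0.11 to 0.94) lie above 0, that of *Lef1* (-0.73 to -0.01) lies below 0, and the remaining 7 include 0.

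The plot of fold changes sets the 10 genes on one scale. Of the 10, 9 had a positive log2 fold change and 1 a negative one, with a median of 0.13, against a median of 0.01 over all genes tested. The median of the 10 was 0.05 without LS1 replicate 3, 0.09 without LS1 replicate 2, 0.26 without LS1 replicate 1 and 0.26 without Control replicate 3. Without LS1 replicate 3, the library that lay between the lines on the first principal component, the log2 fold change was 0.56 in *Wnt5a*, 0.50 in *Ror2*, -0.42 in *Lef1* and 0.20 in *Tcf7*, and none of the 10 genes passed limma's adjusted threshold.

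Ratios within a library do not depend on its scaling, and 3 were compared. The ratio of *Wnt5b* to *Wnt5a* counts was 3.46, 3.23 and 3.47 in the Control mice and 1.90, 3.05 and 2.41 in the LS1 mice, so all LS1 mice were lower. The difference in mean log2 ratio was -0.49 (exact two-sided permutation p = 0.1, adjusted over the 3 ratios 0.15). The ratio of *Tcf7* to *Lef1* counts was 2.21, 1.77 and 1.99 in Control and 2.75, 3.35 and 3.68 in LS1, with no overlap between the lines. Its difference in mean log2 ratio was 0.71 (exact two-sided permutation p = 0.1, adjusted 0.15). The ratio of *Ror2* to *Wnt5a* counts was 0.895, 0.746 and 0.599 in Control and 0.616, 0.812 and 0.647 in LS1. These overlapped, with a difference of -0.10 in mean log2 ratio (exact two-sided permutation p = 0.7). With 3 mice against 3, the smallest p the exact test can give is 0.1.

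Counts of the 13 marker lists were also summed by mouse. These sums did not overlap between the lines for B cell progenitors, chondrocytes, and perichondrium and tendon, and overlapped for the other lists. No gene of the 13 lists passed limma's adjusted threshold. The summed counts of 12 B cell progenitor markers were 62084, 62018 and 64478 in Control and 48685, 35778 and 55961 in LS1, below Control in each LS1 mouse, and 11 of the 12 genes had a negative log2 fold change (median -0.47). *Cd79a*, the most abundant of them, had a log2 fold change of 0.01 (adjusted p = 0.993 from limma). *Lef1* and *Tcf7* are known to be expressed in lymphocyte precursors as well as in skeletal cells. The 8 T cell markers, of which *Tcf7* and *Lef1* are not a part, summed to 2013, 2106 and 2405 in Control and to 1858, 4201 and 2459 in LS1. Of these 8 genes, 6 had a positive log2 fold change (median 0.83), the smallest adjusted p was 0.474 from limma, and LS1 replicate 2 had the highest sum. *Lat*, the most abundant of them by mean, had a log2 fold change of -0.19 (adjusted p = 0.783 from limma). The lowest single value was 6.64 normalized counts, in *Cd8b1*.

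**Figure D4:**
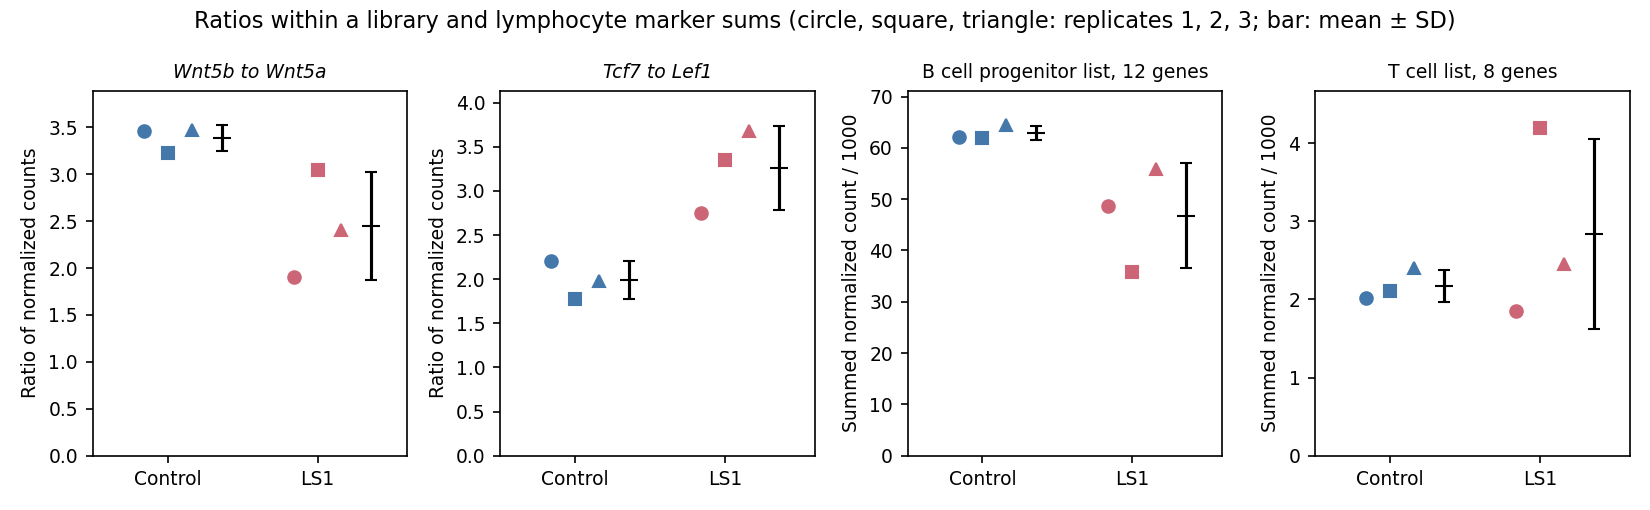
Ratios of normalized counts within a library (left panels) and summed normalized counts of B cell progenitor and T cell markers (right panels, scaled as on their axes), by line. Each point is 1 mouse and each bar the mean ± SD. The LS1 mice lie below Control in the *Wnt5b* to *Wnt5a* ratio and in the B cell sum, above it in the *Tcf7* to *Lef1* ratio, and LS1 replicate 2 stands alone in the T cell sum.

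The plot of ratios and lymphocyte sums places these measures beside each other. The 10 chondrocyte markers summed to between 2098954 and 2437378 normalized counts in Control and between 2633153 and 3178497 in LS1, with 9 of 10 log2 fold changes positive (median 0.49). The 5 markers of perichondrium and tendon summed to between 33690 and 40095 in Control and between 44235 and 53533 in LS1 (4 of 5 positive, median 0.38). Most of the chondrocyte sum came from *Col2a1* (log2 fold change 0.24) and most of the perichondrium and tendon sum from *Postn* (0.29). Both genes overlapped between the lines. The 9 osteoblast and osteocyte markers had a median log2 fold change of 0.05, with 5 positive and 4 negative values from -1.18 to 0.37. In 2 of these 9 genes every LS1 mouse lay below every Control mouse (8.94% of all genes). The 8 erythroid markers (median -0.53) and the 6 muscle markers (median -0.79) had negative values throughout. Median log2 fold changes of the remaining lists were 0.37 (prehypertrophic and hypertrophic), 0.25 (marrow stroma), 0.23 (macrophage), 0.23 (neutrophil), 0.21 (articular and resting zone) and 0.12 (endothelial). The part of these cell types in the values of *Wnt5a*, *Ror2*, *Lef1* and *Tcf7* was not tested.

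The rest of the pathway was described with 8 lists of 94 other Wnt genes, of which 84 had enough reads. None of the 84 passed the adjusted threshold of limma or edgeR, and DESeq2 called 4. Over all genes tested, the shares called were 0.0725%, 0.0363% and 2.36%, in that order of tools. By limma, 10 of 84 had an unadjusted p under 0.05 with higher and 4 with lower values in LS1 (7.08% and 5.86% of all genes), and their median log2 fold change was 0.04. In 14 genes every LS1 mouse lay above every Control mouse, and in 6 every LS1 mouse lay below (10.3% and 8.94% of all genes).

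Upstream of the receptors, *Wls* had 11456, 11370 and 12189.9 normalized counts in Control and 15769, 13532 and 15901 in LS1. Its log2 fold change was 0.37 (adjusted p = 0.284 from limma). *Porcn*, which encodes the enzyme that attaches the lipid to Wnt proteins, overlapped between the lines (log2 fold change 0.18). Of the other Wnt ligands, 5 of 14 were tested, with a median of -0.54, and the smallest p-values were those of *Wnt1* (log2 fold change -1.13, adjusted p = 0.291 from limma) and *Wnt2b* (-0.68).

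All 15 other receptors and coreceptors were tested, and 12 had a positive log2 fold change (median 0.23). The smallest p-values were those of the Frizzled genes *Fzd2* (log2 fold change 0.40, adjusted p = 0.385 from limma) and *Fzd7* (0.35), and in both every LS1 mouse lay above every Control mouse. Among 9 genes of receptor turnover and R-spondins, *Lgr4*, a receptor for R-spondins, had a log2 fold change of 0.50 and *Rspo3* one of 0.45. *Rspo4* had 38.3, 87.6 and 86.3 normalized counts in Control and 11.4, 14.8 and 27.0 in LS1, a log2 fold change of -1.93 (adjusted p = 0.194 from limma), at counts near the minimum for testing.

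The 16 genes of intracellular transduction had a median of -0.09. *Btrc*, which encodes a ubiquitin ligase subunit that marks β-catenin for degradation, had a log2 fold change of -0.40 and the scaffold gene *Axin1* one of -0.31. In the other canonical targets, 11 of 12 genes were tested (not *Sp5*), with a median of 0.03. *Tnfrsf11b*, which encodes the osteoclast inhibitor osteoprotegerin, had a log2 fold change of 0.56, and the cyclin gene *Ccnd1* one of 0.42 (adjusted p = 0.251 and 0.264 from limma). The 13 planar polarity genes had a median of -0.07, and no gene of that list reached an unadjusted p under 0.05. The smallest p-values there were those of *Daam1* (-0.27) and *Celsr3* (0.47).

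The list of secreted antagonists, most of which bind Wnt proteins or their coreceptors, ran from -0.86 to 1.49 in log2 fold change. *Frzb*, a Wnt-binding antagonist of cartilage, had 8708, 11038 and 7048 normalized counts in Control and 20488, 15532 and 15070.4 in LS1. This is a log2 difference of 0.94 (standard error 0.18). *Sfrp1*, of the same family, had 2161, 2242 and 2136 in Control and 4515, 4156 and 3114 in LS1, or 0.83 higher on the log2 scale (standard error 0.16). Every LS1 mouse was above every Control mouse in both, with an adjusted p of 0.120 for each from limma. DESeq2 called both, at adjusted p = 0.00119 and 0.000773, and *Rspo4* and *Sostdc1* as well. *Sostdc1* had a log2 fold change of 1.49 (adjusted p = 0.194 from limma), *Sfrp5* one of 0.38 and *Dkk4* one of -0.86. Of all 13 antagonists, 8 had a positive and 5 a negative log2 fold change, with a median of 0.10. The study had also selected *Frzb* and *Sfrp1* on these libraries. In its growth plate qPCR, *Frzb* was on average slightly below Control in LS1 and about level with it in the other Longshanks line. Neither difference was significant. *Sfrp1* was significantly higher only in the other Longshanks line, with a similar trend in LS1.

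**Figure D5:**
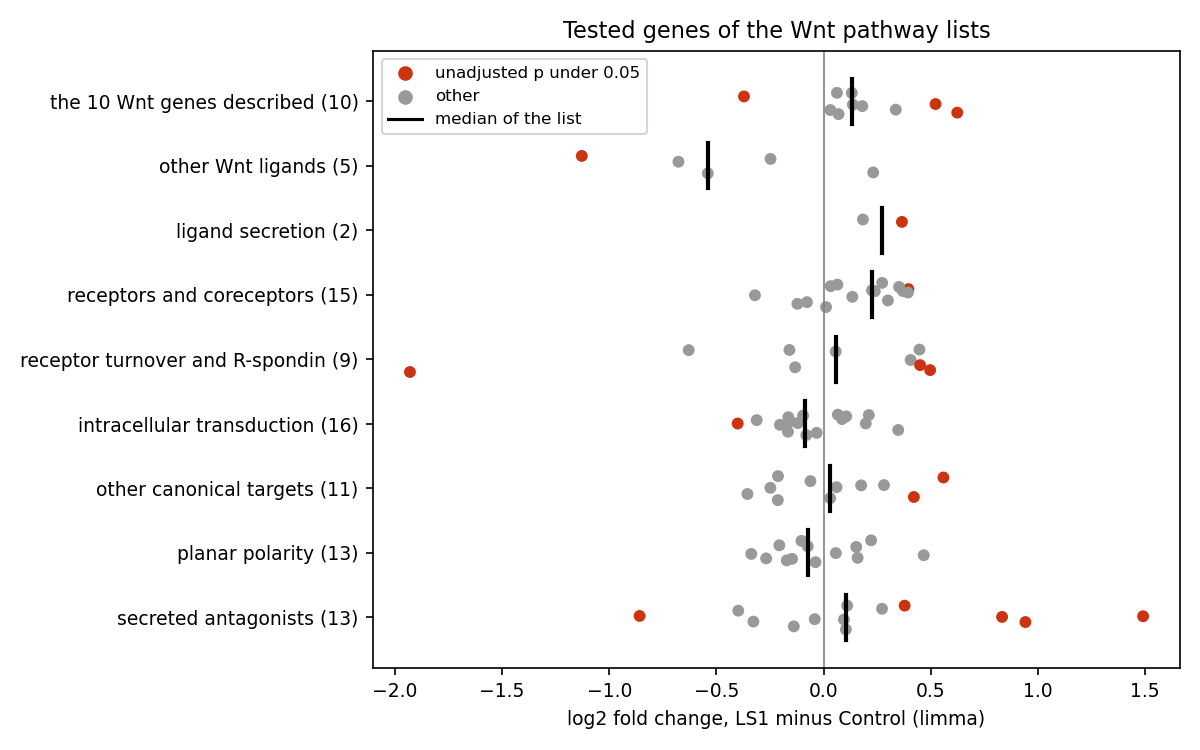
Log2 fold change (LS1 minus Control, horizontal axis) of each tested gene of the 10 Wnt genes described and of the 8 other pathway lists, with the number tested in parentheses. Red points have an unadjusted limma p under 0.05, and vertical bars are list medians. Medians run from -0.54 (other Wnt ligands) to 0.27 (ligand secretion), and the widest values are those of *Rspo4* (-1.93) and *Sostdc1* (1.49).

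The plot of pathway lists shows that the genes of each list lay on both sides of 0, except for the 2 genes of ligand secretion. How the counting treated strand is not given in the sources used here, so reads of an antisense gene cannot be told apart where exons overlap. *Lef1* shares 1208 exon bases with the antisense gene *Gm43352* (mean 21.9 normalized counts), *Wnt5a* 358 with *Gm2670* (12.0), *Wnt11* 364 with *Gm8398* (listed at 0) and *Axin2* 209 with *Gm11670* (0.353).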

How the data were processed

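Polyadenylated RNA from 3 Control and 3 LS1 mice was sequenced as paired reads. The authors mapped the reads to GRCm38 (Ensembl release 84) with HISAT2 2.0.2, counted them per gene with featureCounts 1.4.6 and used DESeq2. The deposited values are a signal per gene, namely the read count divided by 1 size factor per library (the value of 1 read was 0.870 to 1.11), and 0 columns were left unused. Within a tolerance of 0.01, 100% of the values were whole multiples of 1 read, so the deposited counts could be recovered. In Control replicate 1 the step was close to 1 (1.009), and 100% of its values were whole multiples of that step. Symbols (99.1% of genes), gene positions and merged exon lengths came from GENCODE M21.

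Genes with a mean of at least 20 reads were compared on log2(normalized count + 1), a scale that understates the change of low genes. limma 3.58.1 (R 4.3.3) was used with a mean-variance trend, robust moderation and Benjamini-Hochberg adjustment over all 19308 genes, at a threshold of 0.05. edgeR 4.0.16 (quasi-likelihood) and DESeq2 1.42.0 on the recovered reads were among 17 alternatives. The fits were tested on simulated data. Each mouse is a separate sample. No batch was given in the labels. The members and gene lists were chosen with earlier results of these data known. Named genes were the 10 members, and of each other list those with an unadjusted p under 0.05 or else the 2 with the smallest p. Of the B and T cell markers the most abundant and those near 0 were named. Of the chondrocyte markers and of the perichondrium and tendon markers the most abundant was named. For the member with the smallest p the 3 genes most like it were named.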

Additional observations from a re-analysis of the deposited data

How the results depend on the processing

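The number of genes called was 14 with limma and 456 with DESeq2, 7 with edgeR, 8 with limma-voom, 9 with a mean of at least 100 reads, 3 with neither trend nor robust moderation and 45 with no filter beyond 1 read. Leaving out 1 mouse gave 5 (without Control replicate 2) to 324 (without LS1 replicate 3), with 9 without Control replicate 1 and 46 without LS1 replicate 1. Of the 10 Wnt genes, 0 were called by limma, in each fit with 1 mouse left out and under every other alternative except DESeq2, which called 1 (*Wnt5a*). Of the other pathway genes 0 were called by limma, 4 by DESeq2 and 1 with no filter (*Frzb*, adjusted p = 0.0407 from limma). With 1 mouse left out, 0 to 3 were called, the highest being *Rspo4*, *Sfrp1* and *Frzb* without LS1 replicate 3. Over the whole table, the same fits called 14, 456, 45 and, with 1 mouse left out, 5 to 324 genes. The number of the 10 genes without overlap was 3, and 3 to 7 with 1 mouse left out, against 26.6% to 34.6% of all genes in these comparisons of 3 mice with 2 (7 of 10 and 30.2% without LS1 replicate 1). With 1 mouse left out, the log2 fold change ran from 0.55 to 0.77 in *Wnt5a*, 0.38 to 0.67 in *Ror2*, -0.43 to -0.29 in *Lef1*, 0.20 to 0.42 in *Tcf7*, 0.06 to 0.22 in *Wnt5b* and 0.00066 to 0.18 in *Lrp4*, so these 6 kept their sign. The sign turned in *Wnt4* (-0.18 to 0.30), *Wnt11* (-0.25 to 0.30), *Wnt10b* (-0.0096 to 0.31) and *Axin2* (-0.0247 to 0.33), and *Wnt11* was at -0.0238 under DESeq2 and -0.0270 under edgeR. The differences in log2 ratio ran from -0.66 to -0.32 (*Wnt5b* to *Wnt5a*), 0.61 to 0.83 (*Tcf7* to *Lef1*) and -0.25 to 0.0388 (*Ror2* to *Wnt5a*, reversed without Control replicate 1). The median of the other Wnt ligands was -0.18 with no filter, where it covers all 14 of them and not only the 5 tested in the main fit. The cause of the other changes was not tested. With the replicate number as a block, 12 genes and 0 of the 10 Wnt genes were called. Same-numbered mice had correlations of 0.0536, 0.0211 and 0.224 in their deviations from the line means, so the numbers were not shown to pair the mice. The median log2 fold change over all genes stayed between -0.01 and 0.02.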
